A study of Bos taurus with 8 samples.

Results

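The m6A reader proteins are the RNA-binding proteins that recognise N6-methyladenosine, a methyl mark on messenger RNA, or the RNA structures that the mark opens. The 10 genes described here were taken by name: YTHDF1, YTHDF2, YTHDF3, YTHDC1, YTHDC2, IGF2BP1, IGF2BP2, IGF2BP3, HNRNPA2B1 and HNRNPC. All 10 are among the 16606 genes of the deposited table. The rule itself uses no measured value, but the list was drawn up with earlier results of these data known. Transcripts were measured by RNA sequencing in 8 libraries of bovine (Bos taurus) embryos, each made from a pool of 5. The 4 groups of 2 libraries were control embryos and embryos edited in RPL12 (the edit is named A148G in the series' design text), each as 4-cell and as 8-cell embryos. Oocytes of all groups came from slaughterhouse ovaries and were matured and fertilised in vitro. Zygotes to be edited received PEmax, a prime editor that joins a nicking Cas9 to a reverse transcriptase, with a guide RNA by injection into the cytoplasm. The titles call the same embryos base edited, and the 4-cell libraries carry the source name Oocytes although their titles say 4-cell embryo. Whether control embryos were injected, and which share of alleles carried the edit, is not given in the sources used here.

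As background, the YTH proteins hold the methylated adenosine in a pocket of their YTH domain. YTHDF1, YTHDF2 and YTHDF3 are cytoplasmic and act on translation and decay, with YTHDF2 best known for bringing in the CCR4-NOT deadenylase. YTHDC1 is the nuclear member, which acts on splicing and export, and YTHDC2 is an RNA helicase needed for meiosis. The IGF2BP proteins bind through KH domains and stabilise their target RNAs. HNRNPA2B1 and HNRNPC are nuclear proteins of splicing and RNA packaging that bind near methylated sites. Before the embryonic genome is fully active, an embryo runs on RNA stored in the egg, and in the mouse maternal YTHDF2 is required for the decay of part of that store.

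RPL12, the edited gene, stood at 159 and 174 CPM (reads of a gene scaled to the depth of its library) in the 4-cell control libraries and at 27.5 and 33.6 CPM in the 4-cell edited ones. Its 8-cell values were 96.3 and 97.6 CPM in controls and 14.1 and 11.9 CPM in edited embryos. The libraries labelled edited were thus the low ones at both stages. The log2 fold change of RPL12 ranked 697 from the most negative of 12129 tested genes at the 4-cell stage. At the 8-cell stage its rank was 131, so other transcripts fell further at both stages. Libraries held 33527531 to 35122409 reads assigned to genes, so that 3 reads correspond to 0.0858 to 0.0899 CPM. Over all tested genes 18.9% were called higher and 25.8% lower in edited embryos at the 4-cell stage, and 1.08% and 14.5% at the 8-cell stage. Of 10 markers of oocytes and early embryos (ZP2, GDF9, BMP15, BTG4 and others) none was under 1 CPM in any library. Called higher than in controls were 5 in 4-cell and 2 in 8-cell edited embryos, with 0 lower. ZP3, ZP4 and KPNA7 had lower means in 4-cell edited embryos than in 4-cell controls, without a call. Among 22 markers of cumulus and granulosa cells, the somatic cells that surround the oocyte, 14 of the 20 tested were called lower and 1 higher in edited embryos at the 4-cell stage, and 7 lower and 0 higher at the 8-cell stage. Their summed level ran from 4763 to 7587 CPM in 4-cell controls, from 1822 to 2485 in 4-cell edited, from 3510 to 3822 in 8-cell control and from 641 to 1252 CPM in 8-cell edited libraries. LHCGR, FOXL2, TNFAIP6 and COL3A1 had 0 reads in at least 1 library, and LUM was the most abundant of the list in all libraries except 1. LUM alone gave 2878 and 5965 CPM of the sum in 4-cell controls and 1282 and 1897 CPM in 4-cell edited libraries. Of the tested markers HAS2, PTGS2, CYP19A1, STAR and GJA1 had higher means in 8-cell edited embryos than in 8-cell controls, without a call. Of the sperm markers 3 of 6 were in the table, with a summed level of 0.828 to 15.7 CPM, and of the leukocyte markers 3 of 6, with 3.99 to 11.2 CPM. The 1 tested sperm marker, AKAP4, was called higher in 8-cell edited embryos (4.87 and 4.79 CPM against 0.887 and 0.503 in controls). Of 2 tested leukocyte markers 1 was called lower in 4-cell and 1 higher in 8-cell edited embryos. In pooled embryos, fewer cells of a type and less RNA per cell cannot be told apart.

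Of the 10 readers 9 reached a mean of 1 CPM over the 8 libraries and were tested. IGF2BP1, a stabilising reader of fetal tissues, was the exception. It had 0 and 4 reads in the 4-cell control libraries, 0 and 0 in the 4-cell edited, 2 and 0 in the 8-cell control and 0 and 1 in the 8-cell edited libraries. Its transcript was therefore not detectable above a few reads in any group, and no fold change is given for it.

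In edited embryos at the 4-cell stage the readers changed in both directions. YTHDF2 and HNRNPA2B1 fell to about 0.288 and 0.335 times their control mean, while YTHDF1, YTHDC1, IGF2BP2 and IGF2BP3 rose to between 2.03 and 2.70 times theirs. YTHDF3, YTHDC2 and HNRNPC did not pass the test. These calls are from limma on log2(CPM + 1) with p-values adjusted over all 12129 genes tested. They make 4 of 9 readers higher and 2 of 9 lower, where 18.9% of all tested genes were called higher and 25.8% lower. The median log2 fold change of the 9 readers was 0.58, beside -0.02 over all tested genes. Adding the mean level of the cumulus and granulosa markers as a covariate left 0 of 9 readers called in limma. It also left 0 of the 12129 genes called, RPL12 included. At an unadjusted p under 0.05 there were 2 readers, beside 1411 of the 12129 genes. That mean level, on the log2 scale, was 4.63 and 4.84 in 4-cell controls against 3.14 and 3.63 in 4-cell edited embryos, and 3.91 and 4.45 against 2.95 and 2.83 in 8-cell embryos, so it separates the conditions within each stage and the fit can hardly tell the 2 apart. With the covariate the 4-cell log2 fold changes were -2.01 for YTHDF2, 1.64 for YTHDF1, 1.69 for YTHDC1 and 1.54 for IGF2BP3, no smaller than without it, but -1.17 for HNRNPA2B1 and -0.27 for IGF2BP2. The part of these markers in the result was not otherwise tested.

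**Figure D1:**
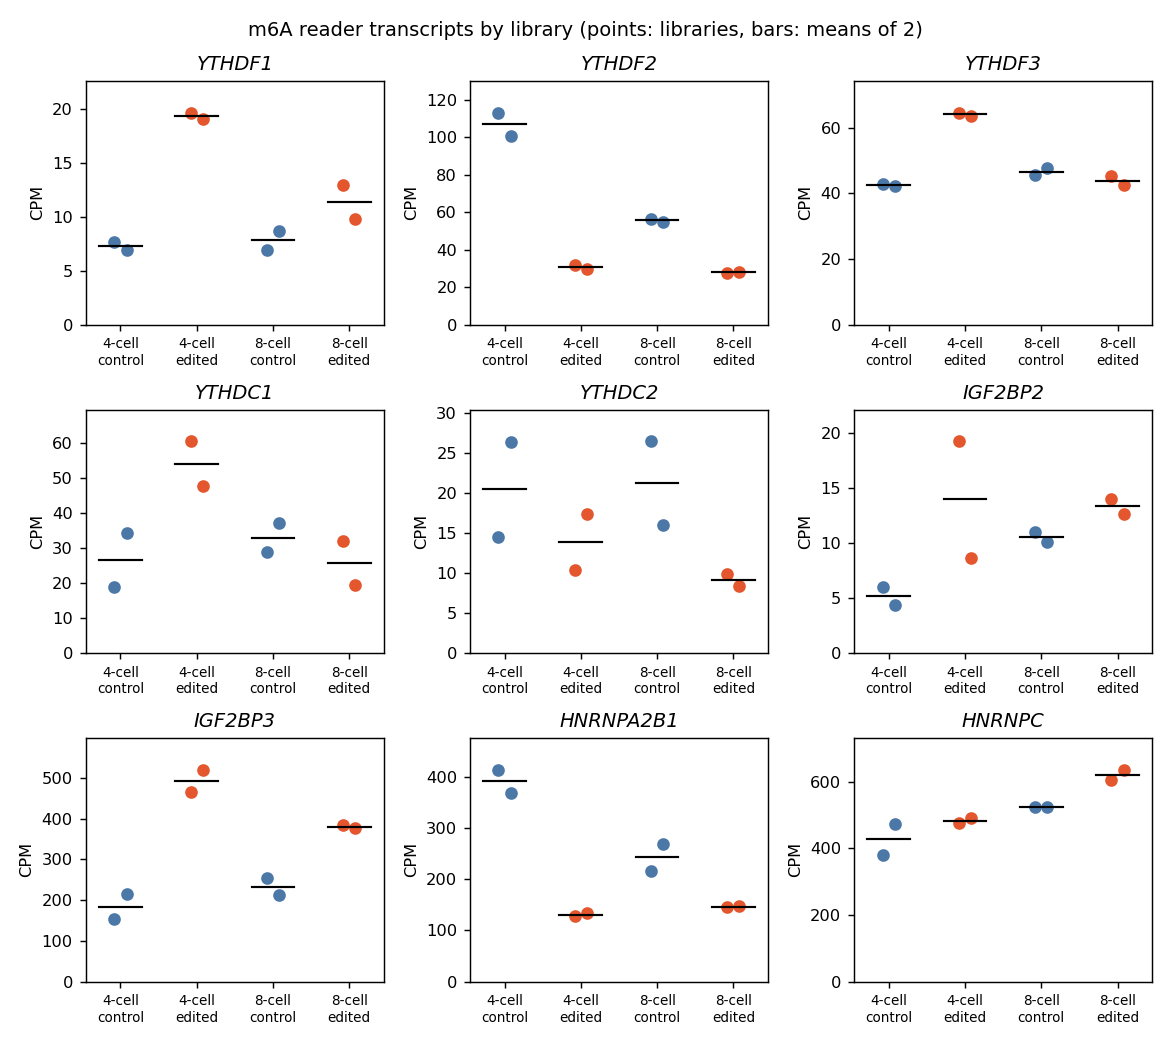
CPM (vertical axes, each from 0) of the 9 tested m6A readers in the 8 libraries; points are libraries, blue for control and red for edited, and bars are means of 2. YTHDF2 and HNRNPA2B1 stand highest in the 4-cell controls, whereas IGF2BP3 is higher in all 4 edited libraries than in any control.

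YTHDF2, the reader tied to RNA decay, stood at 113 and 101 CPM in the 4-cell controls and at 32.0 and 29.7 CPM in the 4-cell edited libraries. The 8-cell libraries held 56.3 and 55.1 CPM of it in controls and 27.4 and 28.4 CPM in edited embryos. The 4 edited libraries lay close together, below every control library, and the controls of the 2 stages did not overlap. The log2 fold change of edited against control was -1.76 (SE 0.241, adjusted p = 3.37e-05) at the 4-cell stage and -0.97 (SE 0.241, adjusted p = 0.00974) at the 8-cell stage. It ranked 1491 from the most negative of 12129 genes at the 4-cell stage, so many other transcripts fell further. The 8-cell call needed both libraries of each 8-cell group: without 8-cell control replicate 1 or 2, or 8-cell edited replicate 1 or 2, the adjusted p was 0.0586, 0.0717, 0.0850 and 0.0677, with log2 fold changes between -0.99 and -0.95.

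YTHDF1, which is known for promoting translation of methylated RNA, had a low level in controls, 7.71 and 6.92 CPM at the 4-cell and 6.98 and 8.69 CPM at the 8-cell stage. In edited embryos it stood at 19.7 and 19.1 CPM at the 4-cell stage and at 12.97 and 9.85 CPM at the 8-cell stage. All 4 edited libraries were above all 4 control libraries. The 4-cell change passed the test (log2 fold change 1.30, SE 0.332, adjusted p = 0.00484), and the 8-cell value did not (0.49, 95% interval -0.22 to 1.19, adjusted p = 0.382).

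YTHDF3, the remaining member of the cytoplasmic family, stood at 42.8 and 42.4 CPM in 4-cell controls and at 64.5 and 63.6 CPM in 4-cell edited embryos. In 8-cell libraries the values were 45.5 and 47.8 CPM for controls and 45.1 and 42.6 CPM for edited embryos. The 4-cell edited libraries thus stood above all others, with the remaining 6 within a narrow band. The 4-cell log2 fold change of 0.58 had an adjusted p of 0.0594 and did not pass. It passed with edgeR (adjusted p = 0.0345), DESeq2 (0.0404), TMM scaling (0.0257) and without a filter on low values (0.0337). The 8-cell value was -0.09 (95% interval -0.59 to 0.42).

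The makeup of the YTHDF family differed between the groups accordingly. Reads were not divided by transcript length, so these shares can be compared between libraries but do not rank the 3 genes. YTHDF2 took 69.1% and 67.2% of the summed YTHDF CPM in 4-cell controls and 27.6% and 26.4% in 4-cell edited embryos. Its 8-cell share was 51.8% and 49.4% in controls and 32.1% and 35.1% in edited embryos. YTHDF1 went the other way, from between 4.61% and 7.79% in the 4 control libraries to between 12.2% and 16.99% in the 4 edited ones. The summed family level was 164 and 150.3 CPM in 4-cell controls, 116 and 112 CPM in 4-cell edited, 109 and 112 CPM in 8-cell control and 85.5 and 80.8 CPM in 8-cell edited libraries. The sum was therefore also lower in edited embryos of each stage.

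The YTHDF3-to-YTHDF2 ratio, which does not depend on how a library is scaled, was 0.379 and 0.420 in 4-cell controls against 2.01 and 2.14 in 4-cell edited embryos. It was 0.807 and 0.868 in 8-cell controls against 1.65 and 1.50 in 8-cell edited embryos. Edited and control libraries did not overlap at either stage. On the log2 scale edited embryos were higher by 1.64 on average, by 2.38 in 4-cell and 0.91 in 8-cell embryos. A two-sided exact permutation test over the 8 libraries, with conditions exchanged within stage, gave p = 0.0556, the smallest value that its 36 arrangements allow. With edited above control libraries at both stages this value was fixed, so the test adds nothing to the lack of overlap.

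**Figure D2:**
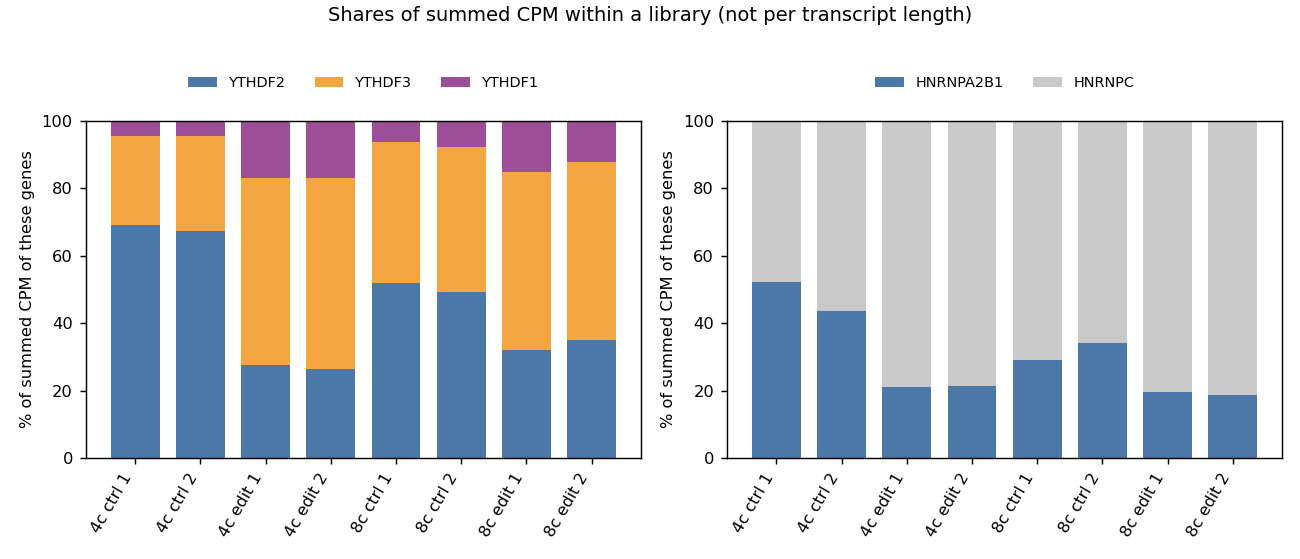
Percentage of summed CPM (vertical axis) taken by each YTHDF gene (left) and by HNRNPA2B1 and HNRNPC (right) in each library; 4c and 8c are the 4-cell and 8-cell stage, ctrl and edit are control and edited. YTHDF2 takes between 49.4% and 69.1% in the control and between 26.4% and 35.1% in the edited libraries.

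YTHDC1, the nuclear reader, stood at 19.0 and 34.5 CPM in 4-cell controls and at 60.5 and 47.8 CPM in 4-cell edited embryos. The 8-cell groups overlapped, with 28.8 and 37.2 CPM in controls and 31.9 and 19.4 CPM in edited embryos. The 4-cell log2 fold change was 1.04 (SE 0.330, adjusted p = 0.0174) and the 8-cell one -0.38 (95% interval -1.08 to 0.32). The 4-cell call rested on single libraries: without 4-cell control replicate 1 the value was 0.63 (adjusted p = 0.190), and without 4-cell edited replicate 1 it was 0.87 (adjusted p = 0.130). It did not pass without a filter on low values either (adjusted p = 0.0536).

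YTHDC2, the helicase, was uneven within groups, with 14.6 and 26.5 CPM in 4-cell controls and 10.4 and 17.4 CPM in 4-cell edited embryos. In 8-cell controls it stood at 26.5 and 16.1 CPM, and in 8-cell edited embryos at 9.95 and 8.42 CPM, below the 6 other libraries. Neither change passed limma: the log2 fold change was -0.51 (95% interval -1.31 to 0.29) at the 4-cell and -1.10 (95% interval -1.90 to -0.30, adjusted p = 0.0619) at the 8-cell stage. The 8-cell value passed with DESeq2 (adjusted p = 0.0409), with only the 8-cell libraries in the fit (0.0383), and without 4-cell control replicate 1 (0.0412) or 2 (0.0450). MEIOC, its partner in meiotic germ cells, stood at 4.61 and 9.97 CPM in 4-cell controls and rose to 23.5 and 22.4 CPM in 4-cell edited embryos (log2 fold change 1.61, adjusted p = 0.00183).

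IGF2BP3 was by far the most read of the IGF2BP genes, with 95.5% to 98.4% of the summed CPM of the 3 in every library. It stood at 153 and 214 CPM in 4-cell controls and at 466 and 519.5 CPM (mean 492.5, SD 38.1, n = 2) in 4-cell edited embryos. The 8-cell values were 253 and 213 CPM in controls and 384 and 376 CPM in edited embryos. Every edited library stood above every control library of both stages. The log2 fold change was 1.44 (SE 0.221, adjusted p = 9.32e-05) at the 4-cell stage, where the gene ranked 487 from the most positive of 12129. The 8-cell value was 0.71 (SE 0.221, adjusted p = 0.0387), rank 759. It was 1 of 131 genes called higher there, and the call did not hold under most alternatives. The adjusted p was 0.0833 with edgeR, 0.0528 with TMM scaling, 0.0763 without a filter and 0.0583 with the replicate block. Without each 8-cell library in turn it lay between 0.0571 (8-cell control replicate 1) and 0.273 (8-cell control replicate 2), with 0.202 and 0.175 without 8-cell edited replicates 1 and 2. Without 4-cell edited replicate 1 or 2 it was 0.0544 and 0.0538.

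IGF2BP2 was read at 6.00 and 4.34 CPM in 4-cell controls and at 19.2 and 8.69 CPM in 4-cell edited embryos, the widest gap between 2 libraries of a group among the tested readers (2.21 times). Its 8-cell level was 10.98 and 10.1 CPM in controls and 13.99 and 12.6 CPM in edited embryos. The edited libraries were above the controls of their own stage. The 4-cell log2 fold change of 1.20 (SE 0.383, adjusted p = 0.0183) lost the call without 4-cell edited replicate 1 (0.66, adjusted p = 0.203), without 4-cell control replicate 2 (adjusted p = 0.0973) and without a filter on low values (adjusted p = 0.0528). In 8-cell embryos it was 0.31 (95% interval -0.50 to 1.12). The IGF2BP3-to-IGF2BP2 ratio ran from 21.1 to 59.8 over the 8 libraries. Its log2 difference of 0.24 between edited and control had p = 0.444 by the two-sided exact permutation test, and leaving out single libraries moved it between -0.09 and 0.56. The lowest of these values was without 4-cell edited replicate 2 and the highest without 4-cell edited replicate 1.

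HNRNPA2B1, which has also been described in microRNA processing, stood at 414 and 368 CPM in 4-cell controls and at 128 and 134 CPM in 4-cell edited embryos. In 8-cell controls it had 215 and 269 CPM, and in 8-cell edited embryos 146 and 147 CPM. As for YTHDF2, the 4 edited libraries were close to each other and below all controls. The log2 fold change was -1.57 (SE 0.211, adjusted p = 2.91e-05) at the 4-cell stage and -0.71 (SE 0.211, adjusted p = 0.0286) at the 8-cell stage. The 8-cell call was lost with edgeR (adjusted p = 0.0785), with TMM scaling (0.0580), without 8-cell control replicate 2 (0.286) and without 8-cell edited replicate 1 (0.169) or 2 (0.162).

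HNRNPC, which binds U-rich stretches that m6A makes accessible, was called in none of the comparisons. It stood at 379.7 and 473 CPM in 4-cell controls and at 475 and 491 CPM in 4-cell edited embryos. In 8-cell controls it stood at 524 and 522 CPM and in 8-cell edited embryos at 604 and 635 CPM. The groups of a stage did not overlap, but the steps were small. The log2 fold change was 0.19 (95% interval -0.24 to 0.62) and 0.24 (95% interval -0.19 to 0.67) at the 2 stages. HNRNPA2B1 accordingly took 52.1% and 43.8% of the summed CPM of the pair in 4-cell controls, 29.1% and 34.0% in 8-cell controls and between 18.8% and 21.5% in the 4 edited libraries. Near-identical copies elsewhere in the genome could have taken or lent reads of either gene, so both levels are uncertain in that respect. In the RefSeq table of assembly ARS-UCD2.0 the span of YTHDF1 is overlapped by another protein-coding gene, LOC112449235, and that of the other 9 readers by none. How reads from such an overlap were assigned is not known, and the strands of the overlapping genes were not compared.

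**Figure D3:**
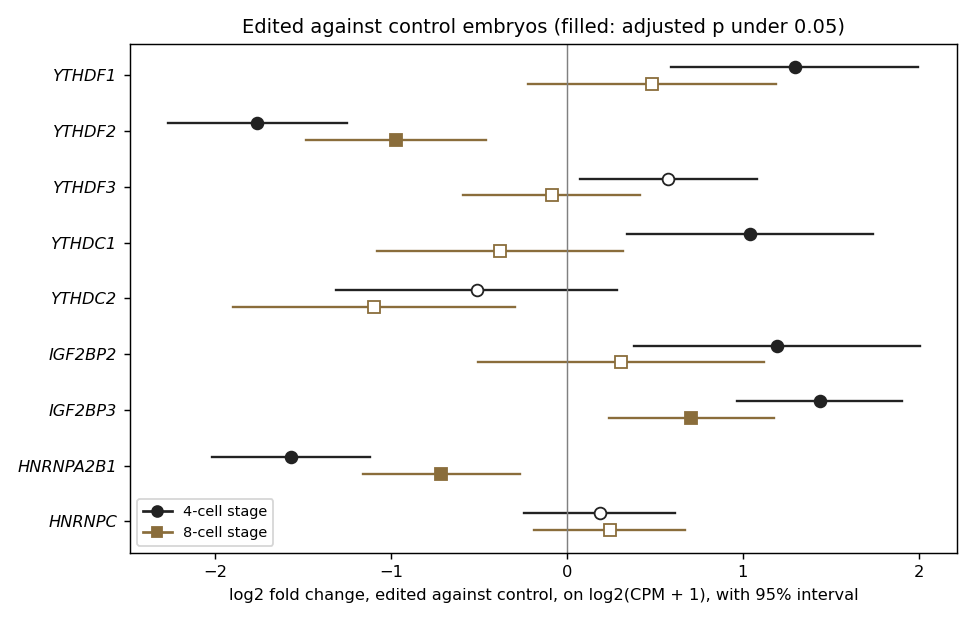
Log2 fold change of edited against control embryos (horizontal axis, log2(CPM + 1) scale) for the 9 tested readers, with 95% intervals from limma; circles are the 4-cell and squares the 8-cell stage, filled where the adjusted p is under 0.05. The filled points of YTHDF2 and HNRNPA2B1 lie below 0 and those of IGF2BP3 above 0 at both stages.

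In 8-cell embryos, then, IGF2BP3 was higher and YTHDF2 and HNRNPA2B1 were lower in edited embryos, and the 6 other tested readers were not called. This is 1 of 9 higher, where 1.08% of all tested genes were called higher, and 2 of 9 lower, where 14.5% were called lower. The median over the 9 readers was -0.09, beside 0.00 (rounded from 0.005) over all genes. DESeq2 called 4 readers and 2248 of 16586 genes at this stage, and edgeR 1 reader and 1695 of 14629 genes. With TMM scaling 1 reader and 1834 of 12120 genes were called. With the covariate of cumulus and granulosa markers, which separates the 8-cell groups too, 0 readers were called. At an unadjusted p under 0.05 there were 0 readers as well, beside 535 of 12129 genes. The 8-cell log2 fold changes with that covariate were -1.21 for YTHDF2, 0.80 for IGF2BP3 and -0.33 for HNRNPA2B1.

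The editing effect of each stage was compared directly. The difference (8-cell effect minus 4-cell effect) was called for 0 of 9 readers by limma, where 3.96% of all genes were called. At an unadjusted p under 0.05 there were 4 of 9, beside 2800 of all 12129 genes. Both edgeR and DESeq2 also called 0 readers, beside 18 of 14629 and 1065 of 16586 genes. For YTHDC1 the difference was -1.42 (95% interval -2.41 to -0.43, adjusted p = 0.0879), with a higher mean in edited embryos at the 4-cell and a lower one at the 8-cell stage. HNRNPA2B1 and YTHDF2 had differences of 0.85 (95% interval 0.22 to 1.49, adjusted p = 0.105) and 0.79 (95% interval 0.07 to 1.51, adjusted p = 0.179), that is, smaller decreases at the 8-cell stage. For IGF2BP3 it was -0.73 (95% interval -1.40 to -0.07, adjusted p = 0.175). Without 4-cell control replicate 2 the differences of YTHDC1 (-1.83, adjusted p = 0.0180) and IGF2BP3 (-0.98, adjusted p = 0.0425) passed.

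Between the stages of control embryos YTHDF2 was the 1 reader called. The change from 107 ± 8.58 CPM (SD, n = 2) at the 4-cell stage to 55.7 ± 0.883 CPM (SD, n = 2) at the 8-cell stage was a log2 fold change of -0.93 (SE 0.241, adjusted p = 0.0308 by limma). This is 1 of 9 readers lower, where 6.27% of all genes were called lower, and 0 of 9 higher, where 2.75% were. The call was lost with edgeR (adjusted p = 0.0769), without a filter (0.0729), with only the control libraries fitted (0.0722), and without 4-cell control replicate 1 (0.204) or 8-cell control replicate 1 (0.225) or 2 (0.0786). HNRNPA2B1 had a similar value, -0.69 (95% interval -1.14 to -0.25), at an adjusted p of 0.0512, and passed with DESeq2 (adjusted p = 0.0225), a pseudocount of 5 CPM (0.0399) and without 4-cell control replicate 2 (0.0342). Summed cumulus and granulosa markers were also lower at the 8-cell stage of controls, as given with the libraries. With these markers as a covariate 0 readers and 7 of 12129 genes were called. At an unadjusted p under 0.05 there was 1 reader, beside 1228 genes. The 4-cell control libraries enter both this comparison and that with 4-cell edited embryos, so the values of the 2 comparisons are not independent.

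In edited embryos 0 of 9 readers were called between the stages by limma in either direction, where 1.45% of all genes were called higher and 3.73% lower at the 8-cell stage. At an unadjusted p under 0.05 there were 3 readers, beside 2604 of all 12129 genes. These readers were YTHDF1, YTHDF3 and YTHDC1, all with lower means at the 8-cell stage. By edgeR 0 readers were called (324 of 14629 genes), and by DESeq2 1 reader (1286 of 16586 genes). That one was YTHDC1, with 54.2 ± 8.97 CPM (SD, n = 2) at the 4-cell and 25.7 ± 8.84 CPM (SD, n = 2) at the 8-cell stage, a log2 fold change of -1.08 and an adjusted p of 0.0695 with limma and 0.0194 with DESeq2. It also passed with only the edited libraries fitted (0.0175) and without 4-cell control replicate 1 (0.0276) or 2 (0.0300). YTHDF2 and HNRNPA2B1 had 95% intervals of -0.65 to 0.37 and -0.29 to 0.61 for this comparison.

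Put in order, the mean level of YTHDF2 was highest in 4-cell controls, then 8-cell controls, then 4-cell and 8-cell edited embryos, and the last 2 did not differ beyond the test. HNRNPA2B1 had its highest level in 4-cell controls too, followed by 8-cell controls, and there the 8-cell edited mean (147 CPM) was above the 4-cell edited one (131 CPM), without passing. For IGF2BP3 the order ran from 4-cell edited through 8-cell edited and 8-cell control to 4-cell control embryos, with neither step between stages passing.

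The transcripts whose profile over the 8 libraries was most like that of YTHDF2 were PSMD8, a proteasome subunit, ERGIC3 and TUSC3, with Pearson r of 0.996, 0.995 and 0.995 on log2(CPM + 1) among 7435 candidates. PSMD8 averaged 142 CPM in 4-cell control, 18.6 in 4-cell edited, 52.3 in 8-cell control and 13.6 CPM in 8-cell edited embryos. HNRNPA2B1 was the reader most like YTHDF2 (r = 0.975), and IGF2BP3 the least like it (r = -0.916). The transcripts closest to IGF2BP3 were LRCH3, SH3BGRL2 and ARL6, with r of 0.993, 0.992 and 0.991. ARL6, a small GTPase of cilia, averaged 119 CPM in 4-cell control, 338 in 4-cell edited, 177 in 8-cell control and 263 CPM in 8-cell edited embryos. These correlations are descriptions over 8 libraries in 4 groups, picked as the highest of 7435 candidates.

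The enzymes that set and remove the mark were measured beside the readers. Of 14 listed writers and erasers, all tested, 5 were called higher and 2 lower at the 4-cell stage, and 1 higher and 0 lower at the 8-cell stage, with medians of 0.50 and -0.13. Over all tested genes 18.9% were called higher and 25.8% lower at the 4-cell stage, and 1.08% and 14.5% at the 8-cell stage. METTL3, the catalytic methyltransferase, fell from 21.8 and 29.2 CPM in 4-cell controls to 12.2 and 9.54 CPM in edited embryos, or 2.35 times (adjusted p = 0.00599, and 0.0520 without 4-cell control replicate 2). Its partner METTL14 rose from 63.7 and 80.6 to 115 and 155 CPM (adjusted p = 0.00636, and 0.0670 without 4-cell edited replicate 2). CBLL1, the E3 ligase HAKAI of the writer complex, rose at both stages, from 58.1 and 106 to 177 and 175 CPM at the 4-cell and from 111 and 82.3 to 218 and 210.1 CPM in 8-cell embryos (2.14 and 2.21 times, adjusted p = 0.00261 and 0.00635). The 8-cell call of CBLL1 was lost without 8-cell control replicate 2 (adjusted p = 0.0892) or 8-cell edited replicate 1 (0.0514). RBM15, an RNA-binding adaptor of the complex, rose 2.35 times at the 4-cell stage (adjusted p = 0.00546), and FTO, a demethylase, fell 2.14 times (adjusted p = 0.00451).

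Among 16 partners and effectors of readers 3 were called higher and 5 lower at the 4-cell stage, and 0 higher and 3 lower at the 8-cell stage, with medians of -0.22 at both. These counts are near the background of 18.9% higher and 25.8% lower, and of 1.08% and 14.5%. SRSF3, a splicing factor known to work with YTHDC1, had the smallest p-value of the list at the 4-cell stage. It stood at 621 and 577 CPM in 4-cell controls against 123 and 126 CPM in edited embryos, and in 8-cell embryos at 345 and 388 against 143 and 120.2 CPM. Its log2 fold changes were -2.26 and -1.48 (adjusted p = 1.22e-06 and 9.83e-05). RIDA, which links YTHDF2 to endonucleolytic cleavage, fell at both stages, from 28.1 and 35.2 to 9.55 and 16.7 CPM and from 23.6 and 23.2 to 4.09 and 6.65 CPM (adjusted p = 0.00843 and 0.000730). CNOT1, the scaffold of the deadenylase that YTHDF2 brings in, rose from a mean of 117 to one of 175 CPM at the 4-cell stage (adjusted p = 0.0442). That call was lost without any single library other than 4-cell control replicate 2, with adjusted p of up to 0.303 without 4-cell control replicate 1. It was also lost with the replicate block (0.0641), with only the 4-cell libraries fitted (0.102) and without a filter (0.0603). XRN1, the cytoplasmic exonuclease, rose 2.25 times there (adjusted p = 0.00248). FMR1, an RNA-binding translational repressor, fell 3.88 times at the 8-cell stage (adjusted p = 0.00100).

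G3BP1, a stress granule protein, fell at the 4-cell stage, from 439 and 395 to 121 and 204 CPM (a log2 fold change -1.40, adjusted p = 0.000272). ELAVL1, a stabilising factor that cooperates with IGF2BP proteins, fell there as well, from 163 and 123 to 75.6 and 84.0 CPM (log2 fold change -0.82, adjusted p = 0.00769). Without 4-cell control replicate 1 the value of ELAVL1 was -0.62 (adjusted p = 0.0661). The 8-cell means of both were higher in edited embryos, without passing.

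Of 10 other RNA-binding proteins that have been proposed to read m6A, 9 were in the table and tested, with 1 called higher and 1 lower at the 4-cell stage and 0 higher and 1 lower at the 8-cell stage (medians 0.12 and -0.13). The background was again 18.9% higher and 25.8% lower, and 1.08% and 14.5%, and the 4-cell counts do not exceed it. HNRNPK fell from 338 and 335 to 88.3 and 84.1 CPM at the 4-cell stage and from 132 and 146 to 76.8 and 67.7 CPM in 8-cell embryos, with log2 fold changes of -1.95 and -0.94. Without 8-cell control replicate 2 or 8-cell edited replicate 2 the 8-cell adjusted p of HNRNPK was 0.0700 and 0.0840. HNRNPU, a nuclear matrix protein, rose from 118 and 189.7 to 323 and 252 CPM in 4-cell embryos (a log2 fold change of 0.93, adjusted p = 0.00634). Without 4-cell control replicate 1 or 4-cell edited replicate 1 its adjusted p was 0.0786 and 0.0774. With the covariate of cumulus and granulosa markers, under which no gene was called at either stage, 0 members of the 3 lists were called. The 4-cell log2 fold changes were then larger in size for RBM15 (1.84), XRN1 (1.86), MEIOC (1.77), METTL14 (1.49) and METTL3 (-1.48). They were smaller in size for SRSF3 (-1.98), HNRNPK (-1.81), CBLL1 (1.02), FTO (-0.99), G3BP1 (-0.79), ELAVL1 (-0.74), HNRNPU (0.63) and CNOT1 (0.54). The limma adjusted p-values of these genes with the covariate ran from 0.282 to 0.800.

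**Figure D4:**
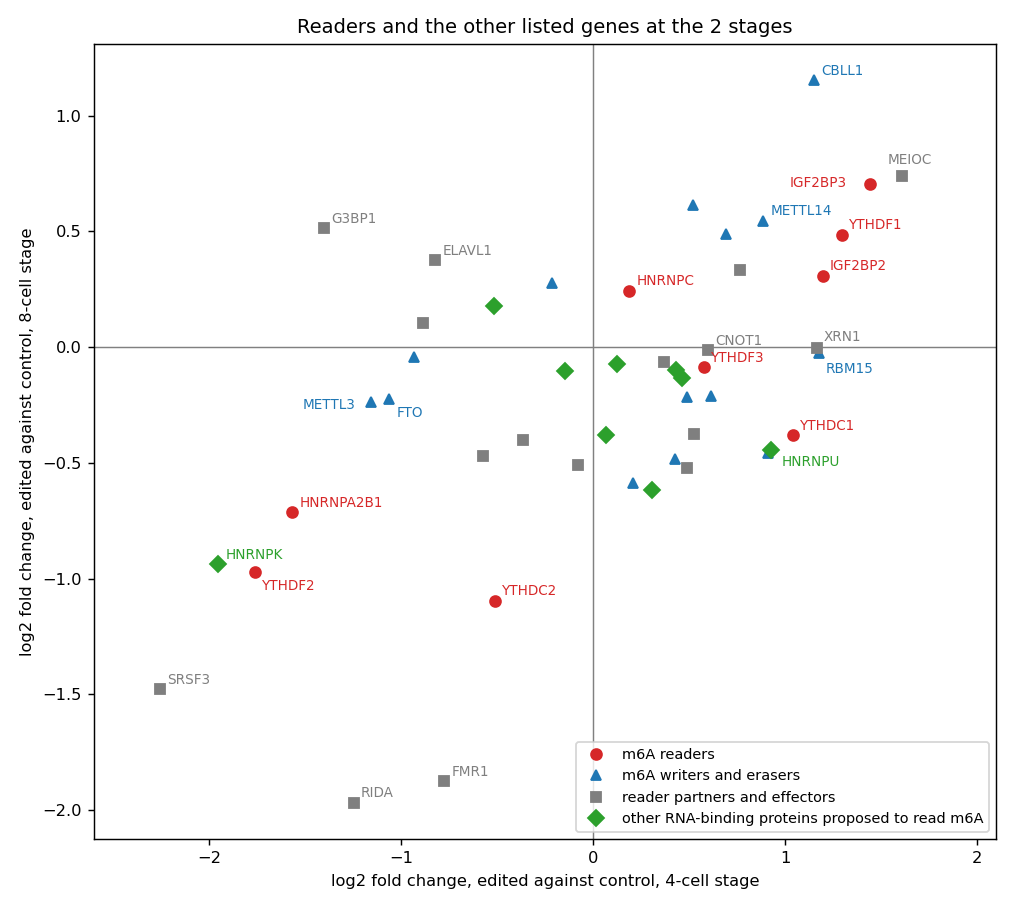
Log2 fold change of edited against control embryos at the 4-cell (horizontal) and the 8-cell stage (vertical) for the 9 tested readers and the 39 tested genes of the 3 other lists; labels mark all readers and the genes named by the rule. SRSF3, HNRNPK, YTHDF2 and HNRNPA2B1 lie in the lower left, and CBLL1, MEIOC and IGF2BP3 in the upper right.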

How the data were processed

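Polyadenylated RNA from pools of 5 embryos was amplified with a Smart-seq kit, and libraries were made with Nextera XT, per the labels' protocols. Trim Galore 0.6.7, HISAT2 2.2.1 and featureCounts 2.0.1 are named in the submitters' processing notes. Their settings, the strand setting, the genome build and the annotation are not given in the sources used here. The table deposited by the authors is named for raw counts, but its values are CPM (reads per gene scaled to a library size), since they hold decimals and total 992528 to 1007024 per column. The totals differ between columns, and how the library size was derived was not tested. In each column 100% of the positive values were whole multiples of 1 step, within 0.05 reads, which gave 33527531 to 35122409 reads per library. A further 4 columns carry no name of a sample in the labels used here and entered no step.

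The main test was limma 3.58.1 (R 4.3.3; mean-variance trend) on log2(CPM + 1). It was fitted over the 12129 of 16606 genes whose mean reached 1 CPM, with 1 mean for each of the 4 groups of 2 libraries. Benjamini-Hochberg adjustment ran over these genes, and an adjusted p under 0.05 was a call. A log2 fold change on this scale understates the change of weak genes. Alternatives were edgeR 4.0.16 and DESeq2 1.42.0 on the recovered reads, TMM scaling, a pseudocount of 5 CPM, no filter, only the libraries compared, a replicate block, a marker covariate and leaving out each library. The fits were tested on simulated counts. The labels do not say whether the libraries of a group came from separate fertilisation rounds, so p-values measure the spread between these pools alone. Libraries of a group differed by more than sampling noise, and none was treated as a repeat of another.

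The members, the 3 other gene lists, the marker lists and the tests were chosen with earlier results of these data known. All readers are named. Of each other list up to 3 called members in each direction are named per comparison of edited with control embryos, by smallest p-value. For YTHDF2 and IGF2BP3 the 3 genes with the highest Pearson correlation over the 8 libraries are named, among tested genes averaging 10 CPM or more.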

Additional observations from a re-analysis of the deposited data

Results flagged for a closer look

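None of the tested readers had an editing effect that differed between stages at an adjusted p under 0.05 in limma. At an unadjusted p under 0.05 there were 4 of 9 readers, beside 2800 of all 12129 genes. Groups of 2 libraries are too small to single out one library by its gap to the others. Among the other named genes 3 did differ by limma's test of the difference itself. They were named for small p-values at the 4-cell stage in the same libraries, so the naming itself favoured a difference. Of all tested writers and erasers 0 of 14 were called for it, of the partners and effectors 2 of 16. Among the other RNA-binding proteins it was 1 of 9, and over all tested genes 3.96%. G3BP1 had a difference (8-cell effect minus 4-cell effect) of 1.92 (adjusted p = 0.0180): it stood at 417 CPM in control and 162.5 CPM in edited embryos at the 4-cell stage, and at 208 and 298 CPM at the 8-cell stage. ELAVL1 had one of 1.20 (adjusted p = 0.0475), with 143 and 79.8 CPM and then 92.8 and 121 CPM. HNRNPU had one of -1.37 (adjusted p = 0.0412), with 154 and 288 CPM and then 216 and 159 CPM. With edgeR the adjusted p-values of the 3 were 0.0765, 0.115 and 0.0870, and without a filter 0.103, 0.108 and 0.130. The call of ELAVL1 was also lost with the replicate block (adjusted p = 0.0678), TMM scaling (0.0727) and the marker covariate (0.0722), and that of HNRNPU with the marker covariate (0.0555). The call of G3BP1 held with that covariate (1.89, adjusted p = 0.0167).

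Leaving out single libraries ended these calls often. For G3BP1 the adjusted p was 0.0732 and 0.0652 without 4-cell edited replicates 1 and 2, 0.0579 without 8-cell control replicate 1, and 0.0621 and 0.0603 without 8-cell edited replicates 1 and 2. For HNRNPU it was 0.118 without 4-cell control replicate 1, 0.123 and 0.113 without 4-cell edited replicates 1 and 2, 0.152 without 8-cell control replicate 1, and 0.160 and 0.102 without 8-cell edited replicates 1 and 2. For ELAVL1 it rose to between 0.0697 (8-cell control replicate 2) and 0.178 (8-cell control replicate 1) without any single library other than 4-cell control replicate 2.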

How the results depend on the processing

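At the 4-cell stage 6 readers were called, and 4 to 6 without single libraries, but 0 with the marker covariate, which separates edited from control within each stage and left no gene called. The log2 fold changes of YTHDF1, YTHDF2, YTHDC1 and IGF2BP3 were no smaller with it (1.64, -2.01, 1.69 and 1.54). Those of HNRNPA2B1 and IGF2BP2 went from -1.57 and 1.20 to -1.17 and -0.27. The fit can hardly tell the covariate from the condition, and the part of the markers was not otherwise tested. At the 8-cell stage 3 were called, 1 with edgeR or TMM scaling, 0 with the covariate and 0 to 4 without single libraries. The difference between stages gave 0, and 0 to 2 without single libraries. For the stages in controls 1 was called, 0 with edgeR, no filter, the covariate or only the compared libraries, 2 with DESeq2 or a pseudocount of 5 CPM, and 0 to 2 without single libraries. In edited embryos 0 were called, 1 with DESeq2 or only the compared libraries, and 0 to 1 without single libraries. The IGF2BP3-to-IGF2BP2 difference ranged from -0.09 to 0.56 without single libraries, -0.0002 without 4-cell control replicate 1.

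Of 160 repeats of reader values called in the main analysis 119 kept direction and call, 40 lost the call and 1 reversed: IGF2BP2 at the 4-cell stage was -0.27 with the covariate. The covariate also turned YTHDC1 (0.24) and IGF2BP2 (-1.09) at the 8-cell stage. Reversals elsewhere were of values near 0 or without a call: HNRNPC's difference between stages (-0.01 with edgeR, -0.02 with TMM, -0.10 without 4-cell control replicate 2, and up to 0.21 without another), the stage change in controls of YTHDF1 (-0.06 without 8-cell control replicate 2, up to 0.22), YTHDC1 (-0.07 without 4-cell control replicate 1, up to 0.75) and YTHDC2 (-0.34 and -0.27 without 4-cell and 8-cell control replicate 1, up to 0.48), and that of IGF2BP2 in edited embryos (-0.07 edgeR, -0.08 DESeq2, -0.005 TMM, -0.51 covariate, -0.50 without 4-cell edited replicate 2, -0.04 without 8-cell edited replicate 1). The cause was not tested.

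The replicate numbers of the titles say nothing of shared origin, and deviations of same-numbered libraries correlated at 0.11, -0.09, -0.30 and 0.02 (4-cell, 8-cell, control and edited comparisons). With the replicate block 6, 2, 0, 1 and 0 readers were called in the 5 comparisons, IGF2BP3 being lost at the 8-cell stage. Crossing the numbers of the 8-cell controls, added after the data were seen, gave 2 readers and 1690 genes between stages in controls. Over all genes, the marker covariate called 0 at both stages (1411 and 535 at an unadjusted p under 0.05) against 5419 and 1895. For the difference between stages the counts ran from 0 to 1396 around 480, for the stages in controls from 0 to 2114 around 1094, and in edited embryos from 5 to 1286 around 628. IGF2BP1, with at most 4 reads a library, was too low to be tested, and 2 libraries a group limit the spread that can be estimated for the others.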
